A study of Arabidopsis thaliana with 2 samples.

Results

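The immune MAP kinase cascade of Arabidopsis thaliana was followed through 10 listed loci: the MAP kinase kinase kinase MEKK1, the MAP kinase kinases MKK1, MKK2, MKK4, MKK5 and MKK9, and the MAP kinases MPK3, MPK4, MPK6 and MPK11. They are 10 of the 21808 loci with at least 1 read in either library. Reads were found on all 10 in the wild-type library and on 9 in the mutant library. Polyadenylated RNA of whole seedlings aged 10 days came from wild type (1 library, 2094440 uniquely placed reads) and from the crwn1 crwn2 double mutant (1 library, 2203650 reads), whose CRWN1 and CRWN2 genes encode coiled-coil proteins of the nuclear lamina. The labels give no accession background, no alleles and no growth conditions. Reads on CRWN1 numbered 1021 and 57 in wild type and mutant, and on CRWN2 148 and 9, so both targeted transcripts were lower in the library that carries the mutant label. With 1 library per genotype there is no replicate check and no test between genotypes. Every interval below covers counting error only and leaves out variation between plants and preparations. PCR copies of a fragment are not independent molecules, so the intervals may be too narrow even for counting error. Plants, harvest and library preparation cannot be told apart from genotype.

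MAP kinase cascades pass a signal from receptors by phosphorylation down tiers of kinases. In plant immunity, cell-surface receptors that sense bacterial flagellin or fungal chitin activate a branch in which MKK4 and MKK5 phosphorylate MPK3 and MPK6, and a branch in which MEKK1, MKK1 and MKK2 act on MPK4, with MPK11 as a close relative of MPK4. MKK9 can also activate MPK3 and MPK6 and has been linked to ethylene and camalexin synthesis. MKK4, MKK5, MPK3 and MPK6 also serve in the development of stomata. Activity of the kinases is set mainly by phosphorylation, which RNA levels do not measure.

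The MAP kinases are activated on a threonine and a tyrosine in the activation loop, and the coding sequence there shows how far the paralogs can be separated by short reads. The 49 bases around these codons are given for the 4 MAP kinases from the RefSeq annotation of TAIR10.1, all on the forward strand within 1 exon, with the threonine, glutamate and tyrosine codons in capitals. The window lies at chr3:16757755-16757803 for MPK3, chr2:18139878-18139926 for MPK6, chr4:568187-568235 for MPK4 and chr1:203406-203454 for MPK11.
MPK3: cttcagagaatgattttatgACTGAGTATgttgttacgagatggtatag
MPK6: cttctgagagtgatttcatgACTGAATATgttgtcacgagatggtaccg
MPK4: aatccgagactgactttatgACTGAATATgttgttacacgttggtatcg
MPK11: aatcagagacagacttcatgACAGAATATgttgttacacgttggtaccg
A model with 1 read had a median of 49.0 bases covered, so each line is as long as a read. MPK3 and MPK6 differed at 7 of the 49 bases and MPK4 and MPK11 at 5, with the longest identical run 11 and 23 bases. All windows of 49 bases of the whole spliced transcripts were searched for exact matches in annotated mRNAs, not in pseudogenes or non-coding genes. No window of MPK3, MPK4, MPK6, MPK11 or any of the 5 MAP kinase kinases occurred in an mRNA of a gene elsewhere in the genome. The windows they did share were with genes overlapping them at their ends in the RefSeq annotation, and no model of these genes in the deposited files overlapped another listed locus. MEKK1 shared 55 of its 2543 windows (2.16%) with its tandem neighbour MEKK2.

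Of the 10 genes, 7 were measured, meaning at least 10 reads and an RPKM (reads per kilobase of transcript model, scaled to the library total) of at least 1 in either library. Only MPK3 was lower in the mutant library by the rule used, and none was higher. A gene was called when log2(RPKM + 1) differed at least 2-fold and the exact 95% interval of its read ratio did not hold 1. Among all 14393 measured loci, 4.53% were called lower and 6.34% higher (652 and 912 loci). Scaling turned that balance, to 826 lower and 691 higher with TMM scaling and 782 and 725 with median-of-ratios scaling. Below 0 on the log2 scale stood 6 of the 7 measured members, against 40.6% of all measured loci. Their median log2 ratio of mutant over wild type was -0.50, and the median of all measured loci was 0.12, or -0.0085 with TMM scaling, under which that of the members was -0.63. The interval of the read ratio lay wholly below 1 for MEKK1, MKK4, MKK9, MPK3 and MPK6, and for MKK5 and MPK4 it held 1. The share of all measured loci with such an interval was not computed, so this describes each gene and not the group. Reads on all 10 genes together came to a CPM (reads scaled to equal library totals) of 1214 in wild type and of 618.5 in the mutant, and their ratio was 0.509 (exact 95% interval 0.477 to 0.544). Without MPK3 the ratio of the other 9 was 0.731 (0.669 to 0.800). In seedling RNA, fewer cells expressing a gene and less RNA per cell cannot be told apart.

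**Figure D1:**
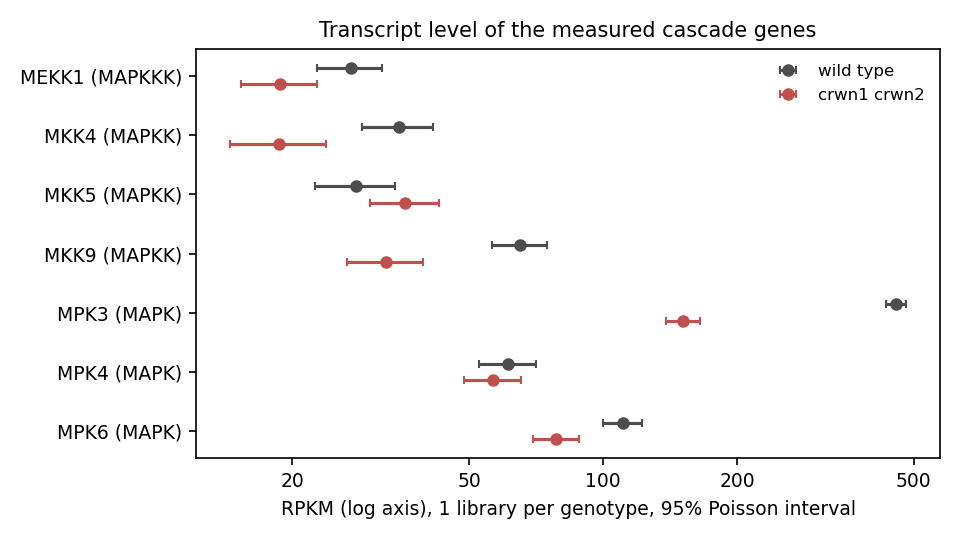
Transcript level of the 7 measured cascade genes as RPKM (log axis) in the wild-type library (grey) and the crwn1 crwn2 library (red), with 95% Poisson intervals of the read counts. MPK3 stands at 456 and 151, above every other member in both libraries, and MPK4 at 61.1 and 56.5 with overlapping intervals.

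MPK3, the MAP kinase whose own transcript is induced by elicitors and wounding, had 1415 reads in the wild-type library and 495 in that of the mutant. Reads covered 98.2% and 99.4% of its transcript model (AT3G45640, chr3:16756770-16758698, forward strand, TAIR10). Its level was an RPKM of 456 (95% Poisson interval 432 to 480) in wild type and 151 (138 to 165) in the mutant. Scaled to library totals it was 3.01-fold lower in the mutant library (2.71 to 3.34), with a log2 ratio of -1.58. Among all measured loci MPK3 ranked 193 by RPKM in wild type and 807 in the mutant. Its log2 ratio was the 243rd from the lowest of 14393.

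MPK6, which shares substrates with MPK3 and acts beside it, had 383 and 286 reads (AT2G43790, chr2:18138307-18140988, forward). Its RPKM was 111 (99.8 to 122) in wild type and 78.5 (69.7 to 88.2) in the mutant. The read ratio was 0.710 (0.607 to 0.829) and the log2 ratio -0.49, so MPK6 was not called, and its interval did not reach 0.5. The interval of MPK6 did not overlap that of MPK3 (0.300 to 0.369). MPK4, the MAP kinase of the MEKK1 branch, had 186 and 181 reads (AT4G01370, chr4:567095-569088, forward). Its RPKM of 61.1 and 56.5 gave a read ratio of 0.925 (0.750 to 1.14) and a log2 ratio of -0.11.

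The make-up of the MAP kinase tier therefore differed between the libraries, a comparison that needs no scaling between them. Of reads on MPK3, MPK4 and MPK6, MPK3 took 71.3% in wild type (exact 95% interval 69.3% to 73.3%) and 51.5% in the mutant (48.2% to 54.7%). The share of MPK6 was 19.3% (17.6% to 21.1%) and 29.7% (26.9% to 32.7%). That of MPK4 was 9.38% (8.13% to 10.7%) and 18.8% (16.4% to 21.4%). Per transcript length, MPK3 stood 4.12-fold above MPK6 in wild type (3.68 to 4.62) and 1.93-fold above it in the mutant (1.66 to 2.24). MPK6 stood 1.81-fold above MPK4 in wild type (1.52 to 2.17) and 1.39-fold above it in the mutant (1.15 to 1.68).

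**Figure D2:**
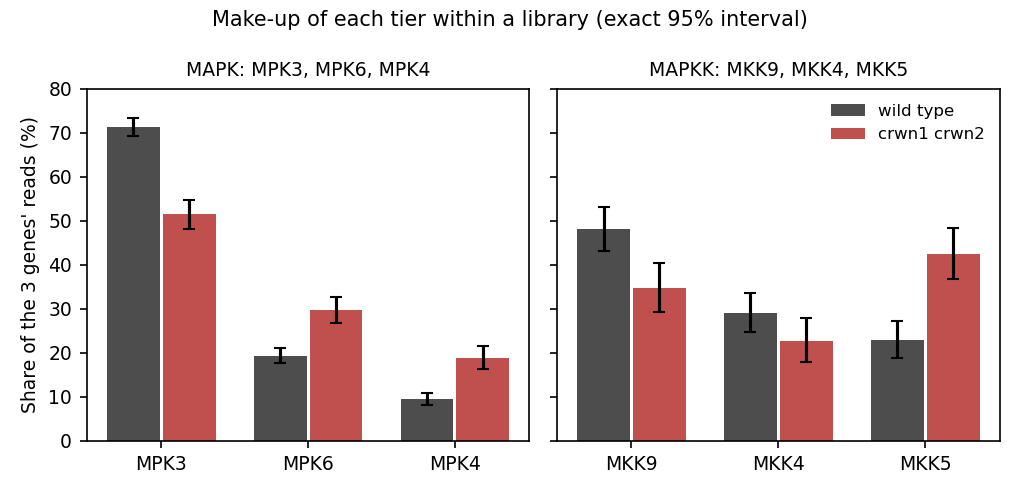
Share of reads within the MAP kinase tier (left; MPK3, MPK6 and MPK4) and within 3 MAP kinase kinases (right; MKK9, MKK4 and MKK5) in each library, in percent with exact 95% intervals. MPK3 takes 71.3% and 51.5% of its tier, and MKK5 22.9% and 42.6% of its group.

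Among the MAP kinase kinases, the paralogs MKK4 and MKK5 stood in different order in the 2 libraries. MKK4 (AT1G51660, chr1:19154323-19155947, forward) had 118 and 67 reads, an RPKM of 34.7 and 18.7. Its read ratio was 0.540 (0.394 to 0.734) and its log2 ratio -0.86, below the 2-fold rule. MKK5 (AT3G21220, chr3:7445757-7447351, forward) had 93 and 126 reads, an RPKM of 27.8 and 35.8. Its read ratio of 1.29 had an interval that held 1 (0.977 to 1.70), with a log2 ratio of 0.35. MKK4 took 55.9% of the reads of the pair in wild type (48.9% to 62.7%) and 34.7% in the mutant (28.0% to 41.9%). Per length, MKK5 was 0.803 of MKK4 in wild type, an interval that held equality (0.605 to 1.06), and 1.92 of it in the mutant (1.41 to 2.62). The pair thus did not differ beyond counting error in wild type and did so in the mutant.

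MKK9 (AT1G73500, chr1:27639091-27640529, reverse) had 196 and 103 reads. Its RPKM was 65.0 (56.2 to 74.8) in wild type and 32.5 (26.5 to 39.4) in the mutant. The read ratio was 0.499 (0.390 to 0.637), and the log2 ratio of -0.98 fell just short of the 2-fold rule because of the added 1. The call of MKK9 depended on scaling. With TMM scaling, which lowered all read ratios by 0.14 on the log2 scale, its log2 ratio was -1.11 and it was called lower, when 5.74% of all measured loci were called lower and 4.8% higher. The other 6 measured members kept their side of the rule under TMM scaling, with MKK4 next to the threshold at -0.99. MPK3 had -1.72 under that scaling. With a 1.5-fold threshold in place of 2-fold, MKK4, MKK9 and MPK3 were called lower and none of the members higher, against 8.3% and 13.8% of all measured loci.

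**Figure D3:**
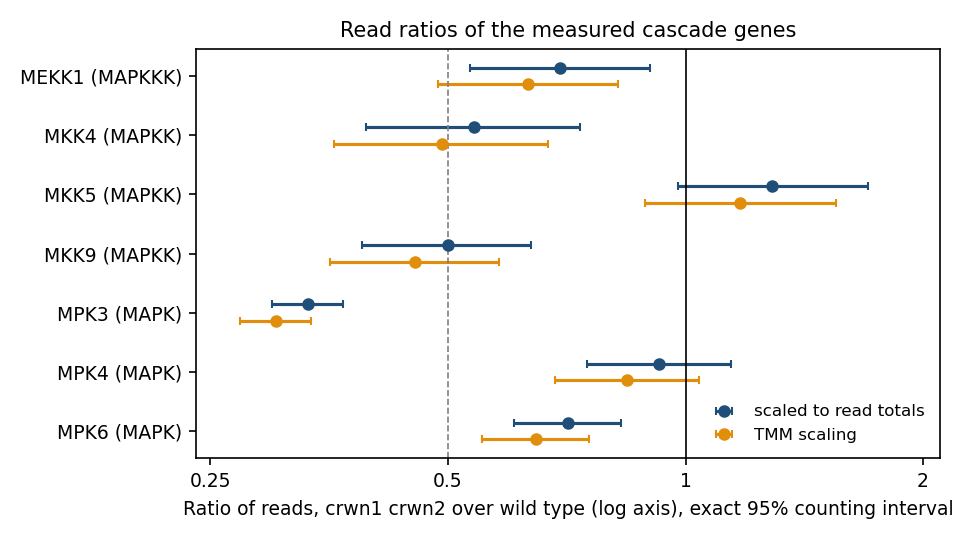
Ratio of reads, crwn1 crwn2 over wild type (log axis), of the 7 measured genes with exact 95% counting intervals, scaled to read totals (blue) and with TMM scaling (orange). The solid line marks 1 and the dashed line 0.5; the intervals of MPK3 lie below 0.5 under both scalings, and those of MKK5 and MPK4 hold 1.

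MEKK1, the kinase at the head of the MPK4 branch (AT4G08500, chr4:5403753-5407301, reverse), had 141 and 103 reads. Its RPKM of 27.0 and 18.8 gave a read ratio of 0.694 (0.533 to 0.901) and a log2 ratio of -0.50, not called. The tandem neighbours MEKK2 and MEKK3 had 53 and 57 reads, and 64 and 78 reads, with log2 ratios of 0.03 and 0.20. MEKK1 took 54.7% of the reads on the 3 tandem genes in wild type (48.4% to 60.8%) and 43.3% in the mutant (36.9% to 49.8%). These separate intervals overlapped slightly, which does not show that the shares were alike.

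MKK1, MKK2 and MPK11 were not measured, and their low counts are no measure of their expression. MKK1, a kinase kinase of the MPK4 branch, had 3 wild-type reads and 1 mutant read (ratio 0.317, 0.00603 to 3.95). Its partner MKK2 had 5 reads and 1 read, spread over the models AT4G29810.1 (4 and 1) and AT4G29810.3 (1 and none). MPK11 had 3 reads in wild type, 1 on AT1G01560.1 and 2 on AT1G01560.2, and none in the mutant. The interval of its read ratio (0 to 2.30) held 1. These 3 genes have 5, 3 and 4 transcript models in the RefSeq annotation, and reads covered at most 9.34% of any model of theirs in the files. Over all loci, models of loci with several listed models had a median of 5.37% and 5.21% of their length covered in wild type and mutant, against 53.7% and 57.8% for loci with 1. MKK1 had only 1 listed model and so stood in the second group, with 9.34% of it covered in wild type. In the RefSeq models of MKK1, at most 16.1% of read-length windows occurred in a single model of the locus. The highest such share was 13.3% for MKK2 and 3.36% for MPK11. RefSeq models are not those on which reads were counted, and their number alone does not go with low coverage. MKK5 has 2 and MEKK3 has 3, yet reads covered 91.4% and 72.1% of their only listed model in wild type. Going by the coverage of loci with several listed models, a read common to several models appears not to have been counted. MPK4 and MPK11, or MKK1 and MKK2 with other members, therefore cannot be compared in level.

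In wild type the order of the 7 levels per length was MPK3, MPK6, MKK9, MPK4, MKK4, MKK5 and MEKK1. MKK9 and MPK4 did not differ beyond counting error (level ratio 1.06, 0.867 to 1.31). Neither did MKK4 and MKK5, nor MKK5 and MEKK1 (1.03, 0.784 to 1.35). In the mutant the order was MPK3, MPK6, MPK4, MKK5, MKK9, MEKK1 and MKK4. There MKK5 and MKK9 (1.104, 0.844 to 1.45) and MEKK1 and MKK4 (1.003, 0.731 to 1.39) did not differ beyond counting error. The loci nearest to MPK3 over both libraries, by Euclidean distance of log2(RPKM + 1), were the tetraspanin gene TET8 (1290 and 432 reads, distance 0.074), the sugar transporter gene STP1 (1904 and 579 reads, 0.150) and the nudix hydrolase gene NUDT17 (1121 and 461 reads, 0.193). A likeness over only 2 libraries says little beyond a similar level and ratio.

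The promoters of MPK3 and MPK6 are shown because these kinases share substrates while MPK3 alone was called. Each runs from 250 bases before to 50 after the RefSeq gene start on TAIR10.1, forward strand, at chr3:16756321-16756620 and chr2:18137996-18138295. Capitals mark the W-box, the site bound by WRKY factors, searched as TTGACC or TTGACT on both strands.
MPK3: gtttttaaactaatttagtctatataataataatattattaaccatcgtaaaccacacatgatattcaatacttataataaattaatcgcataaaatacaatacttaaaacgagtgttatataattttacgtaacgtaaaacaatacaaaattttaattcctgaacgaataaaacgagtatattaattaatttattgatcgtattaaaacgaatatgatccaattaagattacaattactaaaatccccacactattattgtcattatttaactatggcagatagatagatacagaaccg
MPK6: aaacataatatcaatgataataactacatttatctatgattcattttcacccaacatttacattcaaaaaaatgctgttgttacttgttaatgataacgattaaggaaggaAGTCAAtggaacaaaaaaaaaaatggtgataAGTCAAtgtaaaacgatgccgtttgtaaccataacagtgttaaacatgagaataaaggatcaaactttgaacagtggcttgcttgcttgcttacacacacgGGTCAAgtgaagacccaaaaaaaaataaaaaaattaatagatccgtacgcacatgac
The MPK6 window held 3 W-boxes and the MPK3 window none. In the deposited files the MPK3 model starts 199 bases after the RefSeq start, so the MPK3 window depends on which start is used. Of 27443 promoters of protein-coding genes, 32.4% held at least 1 W-box in this window, and of the 10 members 4 did (MKK2 with 3, MPK4 with 2, MPK6 with 3 and MPK11 with 1). Over the 1000 bases before the start, 67.3% of promoters and 6 of the 10 members held at least 1, and MPK3 again none. The rapid stress response element CGCGTT was found in the shorter window in 3.4% of promoters, and among the members in those of MEKK1, with 2, and MPK4, with 1. A match of letters describes the sequence and is not a bound site.

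The other kinases of the same families gave 1 call lower and 1 higher, too few to set apart from the 4.53% and 6.34% of all measured loci. Among 16 other MAP kinases, 8 were measured and none was called in either direction, with log2 ratios from -0.43 to 0.49 and a median of -0.05. MPK5 (56 and 43 reads), MPK7 (135 and 118) and MPK19 (118 and 176) had the largest differences, at -0.43, -0.26 and 0.49. Of 5 other MAP kinase kinases 2 were measured. MKK6, a kinase kinase of cell division, was higher in the mutant with 12 and 37 reads (log2 ratio 1.37, read ratio 2.93, 1.49 to 6.17), and MKK3 had 32 and 49 reads (0.49). Of 20 other MAP kinase kinase kinases of the MEKK type 11 were measured, and MAPKKK14 was lower, with 124 and 35 reads (log2 ratio -1.81, read ratio 0.268, 0.179 to 0.393). ANP3 (40 and 88 reads, 0.98) and MAPKKK17 (9 and 20 reads, 0.91) were not called. The median of the 11 was 0.02, or -0.12 with TMM scaling. Genes not measured in this and the following lists are not thereby unexpressed, since reads common to several models appear not to have been counted. All these lists were chosen with earlier results of these data known, so shares called in them are descriptions only.

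Upstream of the cascade stand receptors, co-receptors and the cytoplasmic kinases they act through. Of 17 such genes 15 were measured, 3 were lower and none higher, against 4.53% and 6.34% of all measured loci, with a median log2 ratio of 0.09. With TMM scaling 4 were lower and none higher, against 5.74% and 4.8%, and the median was -0.03. SOBIR1, the partner kinase of receptor-like proteins, had 1068 and 356 reads (log2 ratio -1.65). PEPR2, a receptor for the plant's own Pep peptides, had 47 and 18 reads (-1.16), and LYK5, a chitin receptor, 329 and 92 (-1.86). FLS2, the flagellin receptor, had 222 and 167 reads (-0.46), and CERK1, the chitin co-receptor kinase, 77 and 92 (0.17); neither was called.

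Of 9 listed genes for phosphatases that switch MAP kinases off only 3 were measured, too few to describe the group. Of these, 1 was called lower and 1 higher, where 4.53% and 6.34% of all measured loci were. AP2C1, a phosphatase gene whose product acts on MPK4 and MPK6, had 1665 wild-type and 398 mutant reads. Its RPKM was 567 and 129, its read ratio 0.227 (0.203 to 0.254) and its log2 ratio -2.13, called lower. AT1G67820, annotated as a protein phosphatase of family 2C, had 8 and 22 reads and was called higher (1.12). MKP1, a dual-specificity phosphatase acting on MPK3 and MPK6, had 247 and 264 reads (0.02).

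Reported substrates and partners of MPK3, MPK4 and MPK6 went both ways. Of 20 such genes 18 were measured, 7 were lower and 1 was higher, against 4.53% and 6.34% of all measured loci, with a median log2 ratio of -0.69. The lower genes were WRKY33, WRKY46, MKS1, ERF6, ACS6, MYB44 and HSFA4A. MKS1, which encodes a protein that links MPK4 to WRKY33, had 80 and 34 reads (-1.26), and WRKY33 itself 2762 and 715 (-2.02). ERF6, an ethylene response factor stabilised by MPK3 and MPK6, had 413 and 96 reads (-2.15). SPCH, a stomatal lineage factor that the cascade phosphorylates, was higher, with 3 and 48 reads (read ratio 15.2, 4.90 to 76.3). Among 12 genes transcribed early after flagellin or chitin, 10 were measured, 5 were lower and 1 was higher, against the same 4.53% and 6.34%, with a median of -1.24. PROPEP3, a precursor gene of Pep peptides, had 34 and 5 reads (-2.60), the ubiquitin ligase gene PUB23 1000 and 185 (-2.49) and WRKY22 241 and 72 (-1.78). WRKY29 was the higher gene, with 10 and 30 reads (1.35), and FRK1, the common flagellin reporter gene, had 1 and 4 reads and was not measured.

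Rapid touch and wound genes, whose transcripts accumulate soon after handling, were mostly lower in the mutant library, as were MPK3, AP2C1 and WRKY33. Of 21 such genes 19 were measured, all 19 stood below 0, 17 were called lower and none higher, against 4.53% and 6.34% of all measured loci, with a median log2 ratio of -1.84 and a range from -3.42 to -0.58. Their summed RPKM was 8577 in wild type and 2286 in the mutant. The touch and wound list was chosen with earlier results of these data known, so its counts are a description and no test. PHI-1 had 918 and 88 reads (-3.42), WRKY40 1834 and 280 (-2.77) and LOX3 379 and 64 (-2.52). The part of handling or harvest in the level of MPK3 was not tested. Both seedling organs were represented. Of 6 shoot markers 5 were measured, with none called and a median of 0.25. RBCS1A, a Rubisco small subunit gene, had 1228 and 1820 reads (0.49). Reads covered at most 23.2% of any shoot marker model, so reads shared with other models or genes may be missing. These values are therefore a weak measure of shoot level. Of 7 root markers 6 were measured and 4 were higher in the mutant, where 6.34% of all measured loci were. These 4 are root hair genes, PRP3 (7 and 96 reads), EXPA18 (0 and 24), EXPA7 (0 and 14) and COBL9 (1 and 23). All 4, and TIP2;3, had too few wild-type reads for the floor and counted as measured only through the mutant library. Genes admitted through the library in which they are high favour calls in that direction. The share called higher is therefore a description, and no conclusion is drawn from setting it against all measured loci. The other measured root markers were not called, PYK10 at a log2 ratio of 0.17 and TIP2;3 with 6 and 15 reads and a read ratio interval that held 1 (0.871 to 7.47). The summed RPKM of the list was 2279 and 2627, most of it PYK10. The part of organ proportions in the members' values was not tested.

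**Figure D4:**
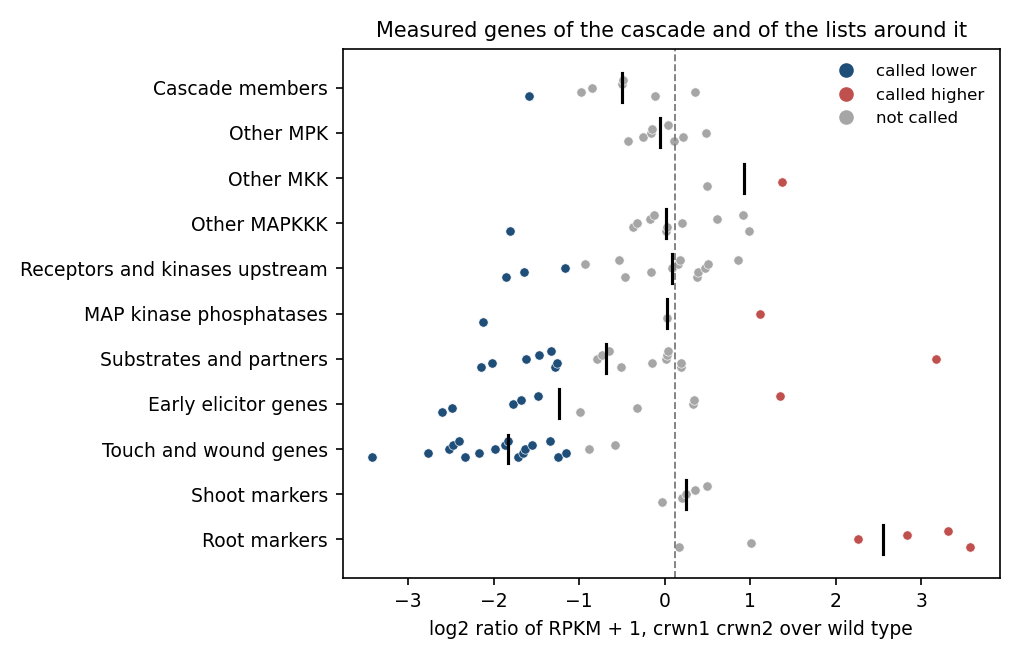
Log2 ratio of RPKM + 1, crwn1 crwn2 over wild type, of each measured gene of the cascade and of the lists around it; blue points were called lower, red higher and grey not called. Black bars are list medians and the dashed line is the median of all measured loci, 0.12. The cascade median is -0.50 and that of touch and wound genes -1.84.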

How the data were processed

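Polyadenylated RNA of 10-day seedlings was sequenced in 1 wild-type and 1 crwn1 crwn2 library (Illumina HiSeq), per the labels' protocols. Per the file headers, the authors deposited whole-number counts of uniquely placed reads per transcript model, RPKM values computed from these counts, the model length in bp, and coverage, the percent of a model's bases that reads cover. The counts sum to the header totals, 2094440 and 2203650. Coordinates refer to TAIR10, the build in the submitters' processing notes. The sources used here name no aligner, counting rule, filter or strand setting, so reads of opposite-strand genes may be mixed.

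Counts and RPKM were summed per locus, a locus absent from a library having 0 reads. Intervals of read ratios are exact conditional binomial 95% intervals and those of shares Clopper-Pearson (scipy 1.17.1). TMM factors came from edgeR 4.0.16 (0.954 and 1.05). The calling rule was run on simulated counts with counting error only and with altered genes well beyond 2-fold. That run cannot show how the rule performs near 2-fold or with variation between plants or preparations. No p-value was computed. Alternatives were TMM and median-of-ratios scaling, a pseudocount of 0.1, CPM, no floor, a 1.5-fold threshold and loci with 1 listed model.

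The RefSeq TAIR10.1 annotation and genome gave sequences and gene names. Of 23377 models found in both, 99.99% overlapped on the same strand, and of 4192 with the same start and end 97.7% had the same spliced length. Coordinates of models are those of the files. The members and the 11 other lists were chosen with earlier results of these data known, so their counts are descriptions. Named were all members, MEKK2, MEKK3, CRWN1 and CRWN2, up to 3 measured genes of largest absolute log2 ratio per list, and the 3 loci nearest to a called member. FLS2, CERK1, MKS1, WRKY29, FRK1 and the other lower substrates were chosen after their values were seen, as were the genes next to the members. The remaining measured root markers were also named outside the rule of largest log2 ratio.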

Additional observations from a re-analysis of the deposited data

How the results depend on the processing

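With 1 library per genotype no setting replaces a replicate. No paired analysis was possible because each genotype had 1 library and the labels carry no replicate numbers. The median of all measured loci turned from 0.12 to -0.0085 with TMM scaling. MPK3 was called lower under all 7 alternatives. The number of members called lower, 1 in the main setting, was 2 with TMM scaling, 2 with median-of-ratios scaling and 3 with a 1.5-fold threshold. MKK9 was called lower with TMM scaling (log2 ratio -1.11), with median-of-ratios scaling (-1.08) and at 1.5-fold (-0.98), and MKK4 at 1.5-fold (-0.86). These alternatives lower every ratio or the threshold by construction. With no floor, 2 other MAP kinase kinase kinases were called lower in place of 1, and 1 upstream gene was called higher in place of 0. A pseudocount of 0.1, CPM and the 1.5-fold threshold each gave 1 higher MAP kinase kinase kinase, ANP3, in place of 0, and the 1.5-fold threshold also gave 1 higher upstream gene. Over all measured loci, with 652 lower and 912 higher, the balance turned to 826 lower and 691 higher with TMM scaling and to 782 and 725 with median-of-ratios scaling, and the 1.5-fold threshold gave 1194 and 1993. No setting gave a call for MKK1, MKK2 or MPK11, whose reads appear to be lost to the counting of shared models.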

Other observations

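The genes next to the members were read from the RefSeq order of protein-coding genes. Of 40 such neighbours, 2 on either side of each member, 28 were measured, 3 were called higher and 1 lower, against 6.34% and 4.53% of all measured loci. The lower neighbour was AT4G01360, beside MPK4, with 84 and 33 reads (log2 ratio -1.34). The higher neighbours were AT2G43800, near MPK6, with 106 and 261 reads (1.18), AT3G21240, near MKK5, with 52 and 120 reads (1.07), and AT1G01580, near MPK11, with 0 and 10 reads. The genes on either side of MPK3 that were measured, AT3G45630 (145 and 155 reads, 0.02) and AT3G45650 (60 and 48 reads, -0.37), were not called.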
